A study of Oryza sativa with 36 samples.

Results

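Leaves of the rice line DK151 were compared between drought and normal watering at tillering and at panicle elongation, and the difference between the 2 drought responses was measured for every gene on the array. It used 12 of the 36 arrays of the series, 3 in each of 4 groups: normal leaves at tillering, drought leaves at tillering, normal leaves at panicle elongation and drought leaves at panicle elongation. All 4 groups share 1 genotype, DK151, a drought tolerant inbred line derived from the variety IR64, so the values describe this line and hold no sensitive line beside it. Each plant grew alone in a tube of baked clay, and drought was imposed by letting the nutrient solution drain away until leaves stayed rolled at noon, with a leaf relative water content of 65% to 75% at every stage. Per the methods, that state was reached after the same number of days at tillering and at panicle elongation, and after fewer days at booting. Each array holds RNA of 1 plant. The other 24 arrays, of roots, booting leaves and young panicles, entered the same model, and those of booting leaves and of roots are used below as a further leaf stage and another organ.

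A rice plant at tillering is building leaves and side shoots, while at panicle elongation the stem lengthens and the young panicle grows inside the sheath, drawing on sugars and nitrogen from the leaves. Loss of water raises abscisic acid, which closes the stomata and switches on protective proteins, among them late embryogenesis abundant proteins and dehydrins, which are otherwise made in drying seeds. A leaf that is pushed further shuts down photosynthesis, breaks down chlorophyll and lipids and exports what it can, as in senescence.

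Values are the authors' linear intensities, with 1 value for a probe set on each array. Probe sets are the groups of short probes that each target 1 transcript. Changes are given as differences of log2 intensity, so that 1 is a doubling, with the standard error of the fit and 3 arrays a group. The stage difference of a gene is its drought change (drought minus normal leaves) at panicle elongation minus its drought change at tillering. A probe set was called when limma's Benjamini-Hochberg adjusted p was under 0.05 over all 57258 rice probe sets and the difference was 5-fold or more (2.32 on the log2 scale), and rose and fell are used below only of calls by these criteria. The 12 array medians lay between 55.0 and 63.9. Replicate arrays correlated across probe sets at 0.973 to 0.988, apart from normal leaves at panicle elongation, where replicates 1 and 3 correlated at 0.993 and replicate 2 correlated with them at 0.944 and 0.943. Results that depend on that array are given with it and without it.

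The drought responses of the 2 stages differed widely. The stage difference was called in 1070 probe sets above 0, which is 1.87% of those tested, and in 1500 below 0, which is 2.62%. Counting 1 probe set for each of 17905 genes in the same fit, the calls were 594 higher (3.32%) and 902 lower (5.04%). The median stage difference was 0.06 over all probe sets and -0.19 over these genes. Medians of gene lists are read below against -0.19, and counts of called list members against 3.32% higher and 5.04% lower. Drought at tillering called 366 probe sets higher and 635 lower, whereas drought at panicle elongation called 1498 and 2034.

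Most of the differences lay in genes that were called at panicle elongation alone. Of the 1070 higher calls, 650 (60.7%) rose at panicle elongation alone, with a median change of 3.63 there and 0.37 at tillering. Another 64 rose at both stages but more at panicle elongation, 123 fell at tillering alone, 7 fell at both stages but less at panicle elongation, 5 fell at tillering and rose at panicle elongation, and 221 were called at neither stage. Of the 1500 lower calls, 927 (61.8%) fell at panicle elongation alone, 28 fell at both stages but further at panicle elongation, 29 rose at tillering alone, 1 rose at tillering and fell at panicle elongation, and 515 were called at neither stage. Leaving out replicate 2 of normal leaves at panicle elongation gave 1076 higher and 1929 lower calls, among them 946 of the 1070 and 1347 of the 1500.

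**Figure D1:**
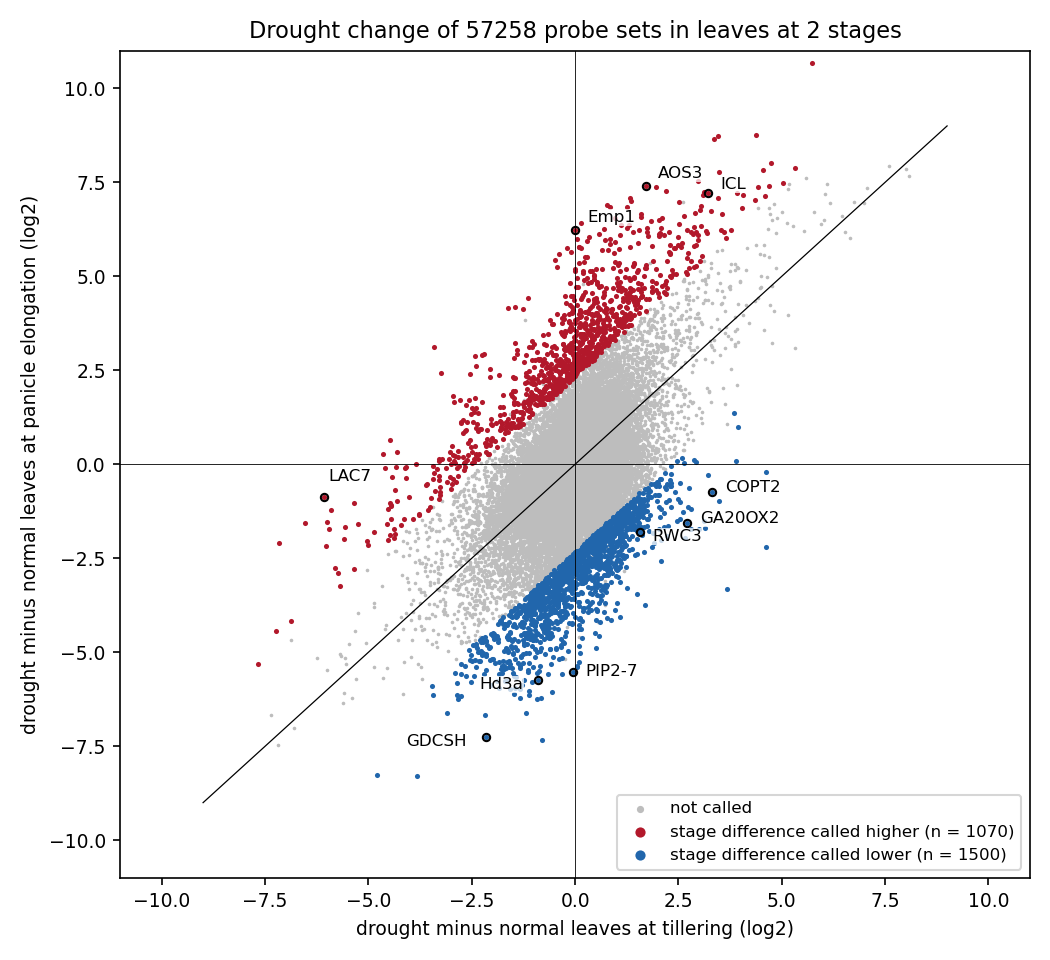
Drought change (drought minus normal leaves, log2) at tillering on the x axis and at panicle elongation on the y axis, 1 point per rice probe set, with probe sets whose stage difference was called higher in red, called lower in blue and not called in grey, and a diagonal where both changes are equal. Red points gather above 0 on the y axis and blue points below it while both stay near 0 on the x axis, as in the 650 probe sets that rose and the 927 that fell at panicle elongation alone.

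Booting leaves, which had fewer days of drought and were not used in choosing these genes, shared part of these changes. Drought at booting called 701 probe sets higher (1.22% of those tested) and 384 lower (0.671%). Among the 650 probe sets that rose at panicle elongation alone, 160 (24.6%) rose at booting too and 1 fell. Among the 927 that fell at panicle elongation alone, 112 (12.1%) fell at booting and 1 rose. The 64 probe sets that rose at both earlier stages rose at booting in 57 cases (89.1%), and the 28 that fell at both fell at booting in 21 (75%).

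Proteins of seed-type protection were among the largest differences of the genes that rose at panicle elongation alone. Emp1, a late embryogenesis abundant protein of the embryo, read 29.1, 33.7 and 43.1 in normal and 51.0, 24.7 and 33.1 in drought leaves at tillering, and 42.4, 41.9 and 43.9 in normal and 3574, 2421 and 3839 in drought leaves at panicle elongation. Its drought leaves at panicle elongation were thus far above the other 9 arrays, which overlap one another. The stage difference was 6.24 ± 0.44, or 75.5-fold (limma, adjusted p = 2.9e-11), and booting leaves lay between, with a change of 3.72. The dehydrin rab25 read 17.0, 26.0 and 23.3 in normal and 64.3, 49.1 and 43.9 in drought leaves at tillering, and 20.9, 20.3 and 24.6 in normal and 2514, 2283 and 2812 in drought leaves at panicle elongation. Drought thus moved rab25 by 1.25 at tillering, which passed the test but not the fold minimum, and by 6.85 at panicle elongation, a stage difference of 5.60 ± 0.43 (limma, adjusted p = 8.0e-11). OsTIP3;1, a water channel of the vacuole membrane known from seeds, read 18.2, 19.4 and 48.1 in normal and 36.7, 48.4 and 41.7 in drought leaves at tillering, and 19.1, 20.8 and 22.2 in normal and 1347, 1908 and 1521 in drought leaves at panicle elongation, a stage difference of 5.54 ± 0.60.

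Other proteins of the same group also rose at tillering. The 8 genes of late embryogenesis proteins and dehydrins had a median stage difference of 1.51. Of them, 3 were called higher and none lower, against 3.32% and 5.04% of all genes. The third, RAB16C, rose at both stages: it read 160.0, 167 and 151 in normal and 2829.9, 1405 and 2013 in drought leaves at tillering, and 129.8, 124 and 132 in normal and 8232, 8211 and 8345 in drought leaves at panicle elongation, a stage difference of 2.36 ± 0.47 that was under the fold minimum without normal or drought replicate 2 at tillering (2.32 and 2.10). RAB21, RAB16B and LEA19 rose by 6.53, 8.08 and 7.58 at tillering and by 6.19, 7.67 and 7.92 at panicle elongation. Their stage differences of -0.34 ± 1.42, -0.41 ± 0.87 and 0.34 ± 1.25 did not pass the test (limma, adjusted p = 0.88, 0.76 and 0.87). RAB16D rose by 5.14 and 7.31, a stage difference of 2.17 ± 0.94 that did not pass the test (adjusted p = 0.076). Dhn1 changed by 1.35 and 2.21, and its stage difference of 0.86 ± 0.23 passed the test (adjusted p = 0.0037) but not the fold minimum. A difference of the size seen in RAB16C lies within 2 standard errors in RAB21 and LEA19 and not in RAB16B. The median drought change of the 8 genes was 4.40 at tillering and 6.54 at panicle elongation.

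**Figure D2:**
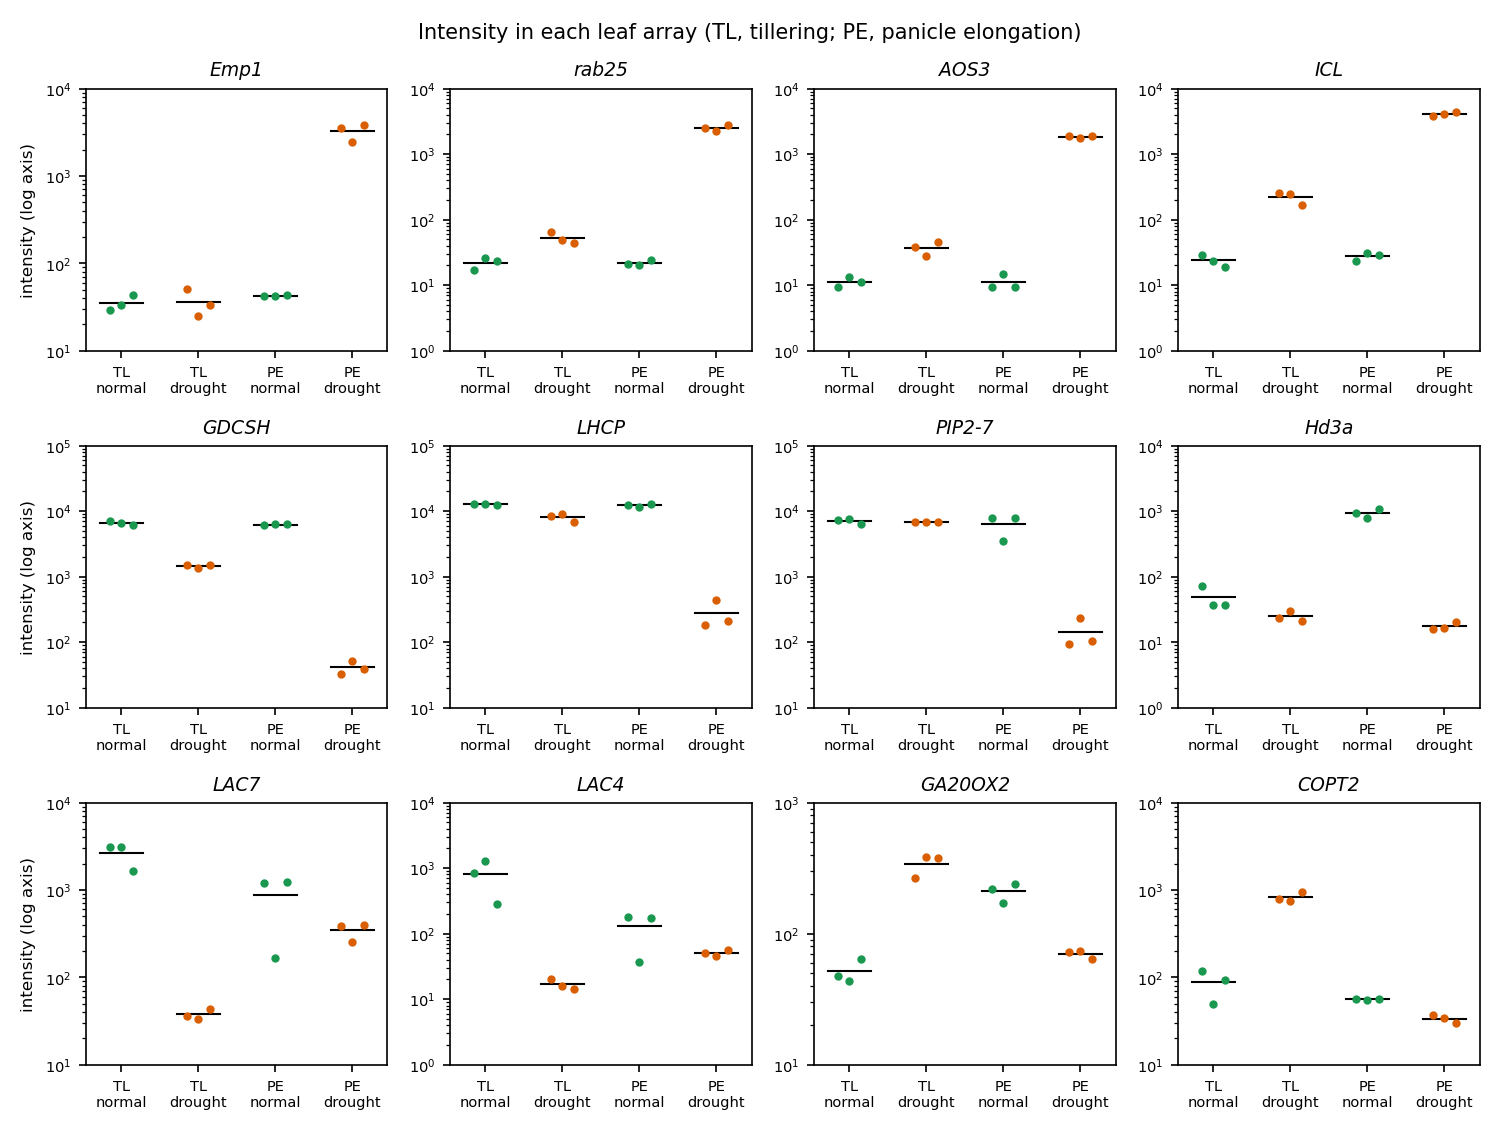
Intensity (log axis) of 12 genes in each of the 12 leaf arrays, with normal leaves in green, drought leaves in orange and a bar at the mean of the 3 arrays of a group, where TL is tillering and PE is panicle elongation. The top row shows genes whose drought leaves stand highest at panicle elongation, the middle row genes whose drought leaves stand lowest there, and the bottom row genes that fell (LAC7, LAC4) or rose (GA20OX2, COPT2) at tillering alone.

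ICL and MS, the enzymes particular to the glyoxylate cycle, by which lipid is turned into sugar, rose at both stages. Isocitrate lyase, ICL, which opens the glyoxylate cycle, read 29.1, 23.6 and 19.1 in normal and 257, 250.3 and 165 in drought leaves at tillering, and 23.5, 30.4 and 28.9 in normal and 3792, 4151 and 4358 in drought leaves at panicle elongation, a stage difference of 4.003 ± 0.50 (limma, adjusted p = 3.9e-07). The drought arrays of the 2 stages did not overlap, and the normal arrays did. All 4 genes of the glyoxylate cycle and fatty acid breakdown had a stage difference above 0 with adjusted p under 0.05, against 17.6% of all genes in that direction and 32.1% in the other when no fold minimum is set, but ICL alone also reached 5-fold. Malate synthase, MS, the partner of ICL, changed by 5.59 at tillering and 7.61 at panicle elongation, and its stage difference of 2.02 ± 0.41 stayed under the fold minimum. The list's median of 1.88 compares with -0.19 for all genes.

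A sugar exporter, a phosphatase, a homeobox gene and a lipid transfer protein also rose at both stages and were higher at panicle elongation. SWEET15, a sucrose exporter tied to ageing leaves and seeds, read 14.6, 35.3 and 14.2 in normal and 574, 156 and 809 in drought leaves at tillering, and 18.2, 14.1 and 19.7 in normal and 2650.3, 3055 and 2857 in drought leaves at panicle elongation. Its stage difference of 2.95 ± 0.71 dropped to 2.24, under the fold minimum, without drought replicate 2 at tillering. PP2C51, a protein phosphatase of the family that damps abscisic acid signals, read 499, 371 and 439 in drought leaves at tillering and 3179, 3236 and 3584 at panicle elongation, with 23.9 to 33.9 in the 6 normal arrays, a stage difference of 2.79 ± 0.28. It was the 1 gene called among 55 phosphatases of that family, whose median was 0.00. The homeobox gene HOX24 read 518, 365 and 535 and then 5212, 4806 and 5486 in drought leaves, against 35.97 to 57.3 in normal leaves, and the lipid transfer protein LTP-2 509.6, 324 and 575 and then 6198, 6270.2 and 6078, with stage differences of 3.43 ± 0.45 and 3.36 ± 0.39. The class III chitinase homologue Os11g0702100 differed by 3.55 ± 0.64. Of 5 genes of chlorophyll breakdown, none was called, 2 had adjusted p under 0.05 above 0 (RCCR1 at 2.06 ± 0.64 and NOL at 1.45 ± 0.42), and the median was 1.03.

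Small heat shock proteins, chaperones that hold unfolding proteins in solution, split into a few that rose strongly at panicle elongation and many that differed little. HSP17.4 read 73.8, 83.3 and 65.6 in normal and 122, 101 and 96.6 in drought leaves at tillering, and 68.1, 184 and 71.9 in normal and 3326, 1658 and 3494 in drought leaves at panicle elongation, a stage difference of 4.27 ± 0.41 (limma, adjusted p = 5.6e-09). HSP23.2 read 7.33 to 20.1 in the other 9 arrays and 703, 219 and 804 in drought leaves at panicle elongation, where replicate 2 was lowest, and differed by 4.65 ± 1.27 (limma, adjusted p = 0.0049) and by 5.25 without that array. HSP18.1 rose at both stages, by 3.03 and 6.76, a stage difference of 3.74 ± 0.43. These 3 were the calls among 19 genes, 8 of which had adjusted p under 0.05 above 0 and 1 below, with a median of 0.90. At booting HSP17.4 and HSP23.2 changed by 0.49 and 0.50, neither of which passed the test. Of 21 heat stress transcription factors, which switch such genes on, 8 had adjusted p under 0.05 above 0, none below, and 1 was called: HSF01 read 133, 148 and 149 in drought leaves at tillering and 892, 716 and 973 at panicle elongation, a stage difference of 2.72 ± 0.27. By adjusted p alone, 17.6% of all genes were above 0 and 32.1% below.

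Some genes of photosynthesis and photorespiration were far lower in drought leaves at panicle elongation than at tillering. GDCSH, the H subunit of the glycine decarboxylase of photorespiration, read 6949, 6468 and 6049 in normal and 1501, 1352 and 1480.0 in drought leaves at tillering, and 6101, 6297 and 6280.3 in normal and 32.4, 51.9 and 39.3 in drought leaves at panicle elongation. The normal arrays of the 2 stages lay close together and the drought arrays far apart, a stage difference of -5.10 ± 0.50 (limma, adjusted p = 7.7e-09). A light-harvesting chlorophyll protein, LHCP, read 12642, 12843 and 12364 in normal and 8326, 8962 and 6777 in drought leaves at tillering, and 12325, 11736 and 12827 in normal and 179.8, 435 and 213 in drought leaves at panicle elongation, a stage difference of -4.92 ± 1.05. RBCS, the small subunit of the carbon-fixing enzyme Rubisco, read 14117 to 14705 in the 6 normal arrays, 11444, 11519 and 11149.6 in drought leaves at tillering and 635, 991 and 939.7 at panicle elongation. Its stage difference was -3.79 ± 0.97 (limma, adjusted p = 0.003), while at booting it changed by -0.49, which did not pass the test (adjusted p = 0.63). Fewer photosynthetic cells and less RNA per cell cannot be told apart in whole leaves.

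The lists of the Calvin cycle, light harvesting, photorespiration and chlorophyll synthesis had medians below that of all genes, though few of their genes were called. Of 8 genes of the Calvin cycle, 2 were called lower (RBCS and the fructose bisphosphatase FBP1) and none higher, with a median of -1.03. FBP1 read 1549, 5508 and 1449 in normal and 230.2, 145 and 238 in drought leaves at panicle elongation, and its difference of -2.91 ± 0.45 was -2.29, under the fold minimum, without the high normal replicate 2. Another probe set of FBP1, with a mean of 949.8 over the 12 arrays, was at -1.57 and was not called. Of 5 light-harvesting and photosystem genes, 1 was called lower, with a median of -1.08. Of 6 genes of photorespiration, 2 were called lower (GDCSH and GLO4) and 1 higher (GLO3), with a median of -1.50. Of 12 genes of chlorophyll synthesis, 2 were called lower and 8 had adjusted p under 0.05 below 0, with a median of -1.92. Over all genes, 5.04% were called lower and 32.1% were below 0 by adjusted p alone. CHLH, a subunit of the chelatase that puts magnesium into chlorophyll, read 5015, 4678 and 3826 in normal and 2159.6, 1722 and 1741 in drought leaves at tillering, and 3589, 4179 and 3105 in normal and 101, 86.5 and 143 in drought leaves at panicle elongation, a stage difference of -3.79 ± 0.45. Chlorophyll synthase, CHLG, read 1424, 1086 and 671 in normal and 1201, 1129.5 and 1221 in drought leaves at tillering, and 1529, 331 and 1544 in normal and 109.7, 130.0 and 148 in drought leaves at panicle elongation, where normal replicate 2 lay far below the other normal arrays. It differed by -3.07 ± 0.50, and by -3.81 without that array.

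Other enzymes of leaf metabolism also fell at panicle elongation alone. PRXIIE-2, a peroxiredoxin, read 1886, 1436 and 1722 in drought leaves at tillering and 61.2, 83.9 and 76.7 at panicle elongation, against 4195 to 4964 in normal leaves, and PDX12, of vitamin B6 synthesis, 1181, 645 and 1235 and then 55.4, 52.1 and 68.0, against 2663 to 5257. Their stage differences were -4.51 ± 0.38 and -4.63 ± 0.65. The starch synthase SSII-2 read 1553, 1822 and 1515 in normal and 1125, 981 and 1019 in drought leaves at tillering, and 1615, 3163 and 1718 in normal and 116, 83.9 and 124 in drought leaves at panicle elongation, a difference of -3.63 ± 0.28. Nitrate reductase, NIA1, which starts the use of nitrate, differed by -3.19 ± 0.40, having changed by -1.99 at tillering and -5.18 at panicle elongation.

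The cytosolic ribosome showed a small shift shared by every gene listed. All 24 genes of its proteins had a stage difference below 0 with adjusted p under 0.05, from -2.02 in RPL27 to -0.56 in RPL3, and none reached 5-fold. By adjusted p alone, 32.1% of all genes were below 0 and 17.6% above. The median drought change of the 24 genes was -1.03 at panicle elongation, against 0.12 at tillering and -0.10 at booting. Of 6 genes of the circadian clock, 4 had adjusted p under 0.05 below 0 and none above, with a median of -0.95 and none called. The time of day of sampling is not given in the sources used here.

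**Figure D3:**
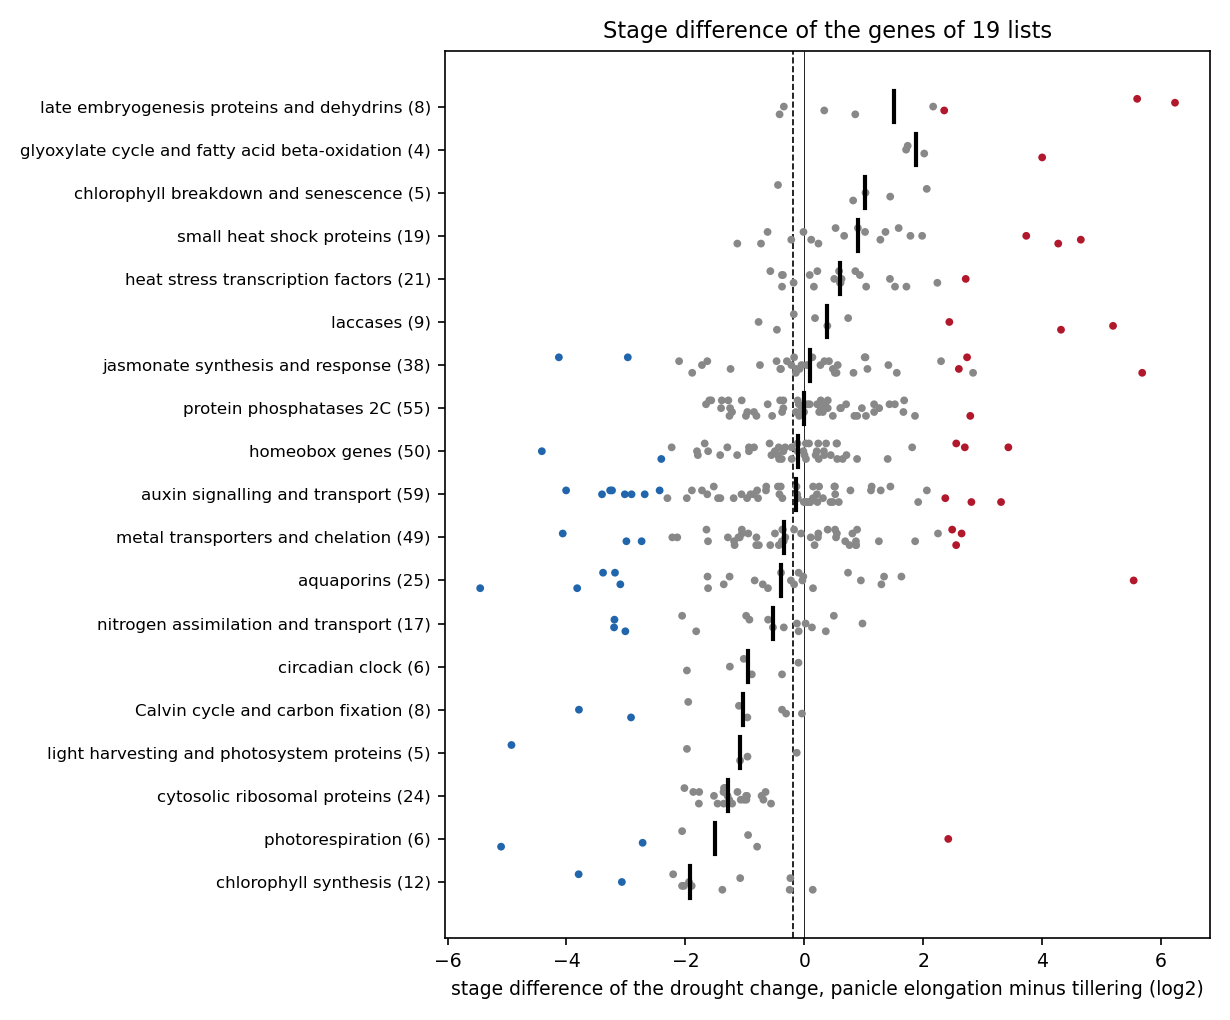
Stage difference of the drought change (panicle elongation minus tillering, log2) of the genes of 19 lists, 1 point per gene, red where called higher, blue where called lower and grey where not called, with the number of genes in brackets, a thick bar at the list's median and a dashed line at the median of all 17905 genes (-0.19). Chlorophyll synthesis, photorespiration and ribosomal proteins lie mainly to the left of the dashed line, late embryogenesis proteins and glyoxylate cycle genes mainly to its right, and auxin, homeobox and metal transport genes spread to both sides.

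Several water channels were lower in drought leaves at panicle elongation than at tillering. PIP2-7, an aquaporin of the cell membrane, read 7338, 7597 and 6423 in normal and 6733, 6812 and 6858 in drought leaves at tillering, and 7797, 3526 and 7906 in normal and 93.7, 237 and 103 in drought leaves at panicle elongation, a stage difference of -5.45 ± 0.90 (limma, adjusted p = 2.2e-05). RWC3, a member of the PIP1 group, read 1041, 1176 and 2062 in normal and 4238, 3435 and 4543 in drought leaves at tillering, and 1898, 2144 and 2077 in normal and 556, 568 and 617 in drought leaves at panicle elongation. Drought arrays of RWC3 thus lay above the normal ones at tillering and below them at panicle elongation, by 1.57 and -1.81, and the stage difference was -3.38 ± 0.29. Of 25 aquaporins, with a median of -0.39, 5 were called lower and 1, OsTIP3;1, higher, against 5.04% and 3.32% of all genes. The other 3 were PIP2-2 (-3.18) and the silicon channels Lsi1 (-3.82) and Lsi6 (-3.09), of which Lsi1 is best known from roots. HAK22, of a family of potassium transporters, read 1607, 1797 and 1427 in normal and 786, 720.0 and 725 in drought leaves at tillering, and 1019, 1939 and 1069.5 in normal and 18.0, 31.6 and 10.96 in drought leaves at panicle elongation, a stage difference of -5.01 ± 0.42, the 1 call among 24 transporters of potassium and sodium. Dimmer probe sets of several genes named here were not called: those of HAK22, SSII-2, IAA3, NIA1, CHLH, GDCSH, PIP2-2, PT8 and 1 of RBCS, with means of 8.01 to 105 over the 12 arrays, were at -1.87 to 0.35.

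Copper transport split between stages. COPT2, which takes copper into the cell, read 119, 50.1 and 92.8 in normal and 788, 744 and 939.8 in drought leaves at tillering, and 56.4, 55.2 and 56.1 in normal and 36.9, 33.9 and 29.8 in drought leaves at panicle elongation. It rose at tillering by 3.32 and differed by -4.06 ± 0.37 (limma, adjusted p = 1.8e-09), and at booting it fell by 2.61. HMA4, which moves copper into the vacuole, read 210.5, 238 and 282 in normal and 367, 357 and 341 in drought leaves at tillering, and 121, 123 and 122 in normal and 1276, 948 and 1174 in drought leaves at panicle elongation, a difference of 2.65 ± 0.26. Of 49 genes of metal transport and chelation, 3 were called higher (HMA4, HMA5 and MTP7) and 3 lower (COPT2, YSL16 and NRAMP3), and HMA5 was at 1.995 without normal replicate 3 at tillering. These counts lie near the shares over all genes, 3.32% called higher and 5.04% lower. For nitrogen, 3 of 17 genes were called lower and none higher: NIA1, the ammonium transporter AMT1-2 (-3.20) and the nitrate transporter NRT2.3, which was -3.01 with all arrays and -2.32, under the fold minimum, without normal replicate 2 at panicle elongation.

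Of the jasmonate synthesis genes, a pair of allene oxide synthases was called in opposite directions. Allene oxide synthase makes the committed precursor of jasmonate, and AOS3 read 9.45, 13.2 and 11.2 in normal and 38.1, 27.7 and 46.3 in drought leaves at tillering, and 9.28, 14.6 and 9.53 in normal and 1861, 1739 and 1891 in drought leaves at panicle elongation, a stage difference of 5.69 ± 0.73 (limma, adjusted p = 5.9e-07). AOS, of the same family, read 160.3, 235 and 112 in normal and 425, 175 and 204 in drought leaves at tillering, and 1234, 249 and 1249 in normal and 57.6, 66.2 and 67.4 in drought leaves at panicle elongation, where normal replicates 1 and 3 stood far above replicate 2. It differed by -4.13 ± 0.59, and by -4.90 without that array. The lipoxygenase LOX5, of the step before, differed by 2.60 ± 0.37, and LOX8 by 2.74 ± 0.92, which lost its call (adjusted p up to 0.077) without any 1 of 6 arrays and was at 3.68 without normal replicate 1 at tillering. The reductase OPR4 differed by -2.97 ± 0.54, so that 3 of 38 jasmonate genes were called higher and 2 lower. Over all genes, 3.32% were called higher and 5.04% lower.

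For ethylene, ACS2, an enzyme that makes its precursor, read 13.5, 9.86 and 27.0 in normal and 32.1, 63.0 and 38.9 in drought leaves at tillering, and 23.0, 23.8 and 25.6 in normal and 904, 716 and 901 in drought leaves at panicle elongation, a difference of 3.63 ± 0.52. The receptor ETR3 read 373 to 528 in the other 9 arrays and 37.2, 66.0 and 32.7 in drought leaves at panicle elongation, a difference of -3.18 ± 0.28. ERF40, a transcription factor of the ethylene response family, differed by 3.94 ± 0.30, and the list of 20 genes had 2 called higher and 1 lower. For cytokinin, the type-A response regulators RR2 and RR9, which the hormone switches on, differed by -3.75 ± 0.32 and -3.61 ± 0.30 and were the 2 calls among 31 genes. The median of these 31 genes was 0.07. Both counts stand beside 3.32% called higher and 5.04% called lower over all genes. RR2 read 379.8, 418 and 260.2 in drought leaves at tillering and 45.7, 31.2 and 25.6 at panicle elongation, against 1091 to 2320 in normal leaves.

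Of 59 auxin genes, 8 were called lower and 3 higher, against 5.04% and 3.32% of all genes. PIN6, an auxin efflux carrier, read 567, 815 and 392 in normal and 269, 463 and 414 in drought leaves at tillering, and 686, 1769.8 and 775 in normal and 31.1, 57.8 and 35.9 in drought leaves at panicle elongation, a difference of -4.01 ± 0.48. The response factors ARF3, ARF8 and ARF9 and the repressors IAA2, IAA3 and IAA25 were called lower, from -2.43 in ARF3 to -3.27 in IAA25, whereas the repressors IAA14 and IAA20 were higher at 3.31 and 2.81. ARF3 was at -2.26 without normal replicate 2 at panicle elongation and -2.32 without normal replicate 3 at tillering, IAA2 at -2.21 without normal replicate 2 at tillering and IAA20 at 2.29 without normal replicate 1 at tillering, each under the fold minimum. IAA14 was dim, at 2.05 to 7.92 in 9 arrays and 23.7, 40.9 and 30.0 in drought leaves at panicle elongation. With values under 28.3, the 25th percentile, raised to it, IAA14 was at 0.20 (adjusted p = 0.22) and IAA20 at 1.88, and neither was called. IAA25 kept its call at -2.57 without normal replicate 2 at panicle elongation. GH3.2, which ties auxin to amino acids, read 79.3, 61.4 and 87.1 in normal and 539, 492 and 502 in drought leaves at tillering, and 92.2, 896 and 112 in normal and 117, 131 and 159.7 in drought leaves at panicle elongation, so that normal replicate 2 alone reached the level of drought leaves at tillering. Its stage difference was -3.40 ± 0.70, and it was -2.35 without that array and -3.99 without normal replicate 1.

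Gibberellin itself was not measured. Among the 18 genes listed for its synthesis and breakdown, the largest stage difference was in GA20OX2, encoded by the semidwarf gene of rice. It read 47.9, 43.8 and 63.5 in normal and 265, 383 and 374 in drought leaves at tillering, and 220.0, 172 and 238 in normal and 73.0, 73.2 and 64.2 in drought leaves at panicle elongation. Drought leaves lay above normal leaves at tillering and below them at panicle elongation, with no overlap in either case. The changes were 2.72 ± 0.29 and -1.57 ± 0.29 (limma, adjusted p = 1.6e-08 and 4.5e-05), and the stage difference was -4.29 ± 0.41 (limma, adjusted p = 4.8e-09). The other calls among these 18 genes were the diterpene synthases OsKS3 (2.50 ± 0.78) and CPS2 (-2.67 ± 0.78), which were listed by symbol alone. Whether they act in gibberellin synthesis was not tested. Both lost their calls in some fits without 1 array of panicle elongation. OsKS3 lost it without normal replicate 1 or 3 or drought replicate 3 (1.83 to 2.32) and was at 3.70 without normal replicate 2, and CPS2 lost it without normal or drought replicate 2 (-2.19 and -1.93).

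Hd3a, the leaf-made flowering signal of rice, stood apart because its normal level changed between the stages. It read 71.7, 37.0 and 36.7 in normal and 23.0, 30.2 and 21.3 in drought leaves at tillering, and 950.0, 794 and 1067 in normal and 15.7, 16.6 and 20.0 in drought leaves at panicle elongation. Of the 12 arrays, the 3 of normal leaves at panicle elongation were high and the other 9 lay between 15.7 and 71.7. Its change at panicle elongation was -5.75, while at tillering it was -0.91 and at booting -5.45. The stage difference was -4.84 ± 0.32 (limma, adjusted p = 9.9e-12). It was the 1 call among 13 flowering time genes. Hd1, a regulator upstream of Hd3a, changed by 1.14 and 2.94, a difference of 1.80 ± 0.32 that passed the test and not the fold minimum.

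A smaller set fell at tillering alone. The laccases LAC7 and LAC4, copper enzymes of a family that joins lignin units, belonged to it. LAC7 read 3111, 3133 and 1657 in normal and 36.4, 33.0 and 43.9 in drought leaves at tillering, and 1209, 166 and 1225 in normal and 390.3, 254 and 399 in drought leaves at panicle elongation, and LAC4 read 851, 1272 and 288 in normal and 20.0, 15.8 and 14.5 in drought leaves at tillering, and 177, 37.1 and 172 in normal and 51.2, 45.6 and 56.8 in drought leaves at panicle elongation. Drought leaves at tillering thus lay below every other array in both genes, while normal replicate 2 at panicle elongation lay below the drought arrays of its stage. The stage differences were 5.20 ± 0.75 and 4.32 ± 0.62, and 4.24 and 3.57 without that array, and LAC4 was at 4.94 without normal replicate 3 at tillering. LAC24 was higher too (2.44 ± 0.67), though through a rise at panicle elongation, and it was under the fold minimum in 3 of the 12 fits that leave out 1 array (2.24 to 2.31). It makes the third of 3 calls among 9 laccases, against 3.32% of all genes called higher, and the median of the 9 was 0.39.

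Other members of that set were transcription factors and growth genes. FOS1, a peptide of the family that limits meristem size, read 447, 348 and 181 in normal and 53.6, 31.8 and 37.9 in drought leaves at tillering, and 100.1, 58.6 and 103 in normal and 226, 372 and 229 in drought leaves at panicle elongation, so that it fell at tillering while at panicle elongation drought leaves were 1.66 above normal, under the fold minimum. UGE-3, which supplies sugar units to the cell wall, read 1082, 1104 and 766 in normal and 169, 184 and 146 in drought leaves at tillering, and 724, 1801 and 793 in normal and 1439.7, 1699.9 and 1638 in drought leaves at panicle elongation. Their stage differences were 4.59 ± 0.39 and 3.20 ± 0.61. Probe sets of 2 MYB family members differed by 4.79 ± 0.49 and 3.04 ± 0.52. In a probe set of the MYB-related family, normal leaves read 810.0, 833 and 479.7 at tillering and 72.3, 49.3 and 68.2 at panicle elongation, while all 6 drought arrays lay between 63.0 and 81.2, but a dimmer probe set of the same gene was at 0.76 and was not called. Of the 123 probe sets that fell at tillering alone, 37 also differed by a call between the normal leaves of the 2 stages, against 14 of the 650 that rose at panicle elongation alone. The share over all probe sets was 0.251%. The first count follows in part from the choice of genes, since the normal arrays at tillering enter both comparisons.

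Genes that rose at tillering alone were few, 29 probe sets in all. BURP2, of the plant-specific BURP domain family, read 990.4, 1571 and 1731 in normal and 8457, 8347 and 7631 in drought leaves at tillering, and 305, 79.9 and 347 in normal and 79.8, 64.7 and 77.6 in drought leaves at panicle elongation. All arrays of the later stage lay below all arrays of the earlier one, and the stage difference was -4.01 ± 0.92, and -4.69 without normal replicate 2 at panicle elongation. Os07g0636600, of a disease resistance response family, read 84.1 to 144 in drought leaves at tillering and 15.2 to 41.0 elsewhere, a difference of -3.17 ± 0.45, but 2 other probe sets of the gene at lower intensity were at -0.98 and -1.59 and were not called, and with values raised to 28.3 the first was at -2.06. Of these 29 probe sets, 2 rose and 1 fell at booting.

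In 6 probe sets the drought change was called in opposite directions. A probe set described as of the bHLH transcription factor family read 29.2, 166 and 111 in normal and 1868, 554 and 1086 in drought leaves at tillering, and 3629.9, 279.7 and 3544 in normal and 135, 172 and 157 in drought leaves at panicle elongation. Normal replicate 2 lay far below the other normal arrays of its stage. The stage difference of -6.99 ± 1.24 (limma, adjusted p = 5.6e-05) was -8.22 without that array and -6.25 to -6.39 without normal replicate 1 at tillering or normal replicate 1 or 3 at panicle elongation. The other 5 probe sets fell at tillering and rose at panicle elongation, and none has a symbol or description in the annotation used here. They were added after their values were seen. Of these 5, a probe set with little spread read 346, 319 and 214 in normal and 32.4, 26.2 and 32.6 in drought leaves at tillering, and 84.7, 129 and 78.5 in normal and 468, 503 and 569.7 in drought leaves at panicle elongation, a difference of 5.68 ± 0.45. Another was variable, at 103, 489 and 2362 in normal leaves at tillering, and its difference of 6.54 ± 0.99 ranged from 5.41 to 7.67 as 1 array was left out. It was at 3.33 in booting leaves. The paper lists a late embryogenesis abundant protein gene with this pattern, lower under drought in tillering leaves only and higher in its other samples. Whether this probe set belongs to that gene was not tested.

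With a 2-fold minimum in place of 5-fold, 393 probe sets changed in opposite directions at the 2 stages with adjusted p under 0.05 in each, 126 of them higher and 267 lower at panicle elongation, and 355 of these 393 had their stage difference called. DCL4, which cuts double-stranded RNA into small RNAs, read 152, 189 and 143 in normal and 329, 364 and 365 in drought leaves at tillering, and 279, 283 and 243 in normal and 75.1, 82.0 and 50.6 in drought leaves at panicle elongation. Drought leaves lay above the normal ones first and below them later, and the difference was -3.12 ± 0.23. The peroxidase Os07g0676900 read 78.8, 66.1 and 59.0 in normal and 304, 280.1 and 315 in drought leaves at tillering, and 50.7, 74.1 and 56.3 in normal and 18.4, 19.5 and 18.5 in drought leaves at panicle elongation, a difference of -3.81 ± 0.21 with the drought arrays of each stage clear of its normal arrays. Both belong to the probe sets, 221 higher and 515 lower, that were called at neither stage and in their stage difference.

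A further 28 probe sets fell at both stages and further at panicle elongation. The hydrolase Os08g0485900 read 2883, 2767 and 2159 in normal and 334, 377 and 359 in drought leaves at tillering, and 2254, 2273 and 2302 in normal and 38.4, 34.0 and 25.7 in drought leaves at panicle elongation, a difference of -3.28 ± 0.30. The peptidyl-prolyl isomerases Os08g0382400 and Os01g0111100, enzymes of protein folding, read 431 to 522 and 349 to 525 in drought leaves at tillering, and 30.3 to 69.4 and 32.9 to 52.8 at panicle elongation. Their differences were -3.18 ± 0.36 and -2.68 ± 0.43. An annexin, Os05g0382600, differed by -2.50 ± 0.35, but its other probe set, which fell at both stages too, was at -0.58 and did not pass the test. Conversely Os07g0162700, with an esterase domain, fell further at tillering: it read 4064, 3733 and 3365 in normal and 91.4, 52.8 and 79.2 in drought leaves there, and 1313, 716 and 1334 in normal and 118, 126 and 103 in drought leaves at panicle elongation, a difference of 2.45 ± 0.42 that was under the fold minimum without normal replicate 2 of that stage (2.15) or drought replicate 2 at tillering (2.22).

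Close relatives were found on both sides within several families, most of them chosen after their values were seen. The catalase catA read 5858, 5712 and 2328 in normal and 4142, 5785 and 4679.6 in drought leaves at tillering, and 3359.7, 1399.6 and 3710.3 in normal and 79.6, 357 and 103 in drought leaves at panicle elongation, a difference of -4.36 ± 0.63 that was -5.02 without drought replicate 2 of that stage, while CatB read 2569, 2536 and 2642 in drought leaves at tillering and 6362, 6786 and 7523 at panicle elongation. Both remove hydrogen peroxide. CatB's difference was 2.36 ± 0.17, its other probe sets gave 1.47 to 3.59, the brightest of the gene over the 12 arrays gave 2.07, under the fold minimum, and the first was at 2.29 to 2.31 without any 1 of 3 arrays. Glycolate oxidase makes peroxide in photorespiration, and its genes GLO3 and GLO4 differed by 2.42 ± 0.30 and -2.72 ± 0.29, the first falling just under the fold minimum in 3 fits without 1 array (2.26 to 2.32). GLO4 read 1062, 1281 and 1336 in drought leaves at tillering and 141, 265 and 149 at panicle elongation, whereas GLO3 read 304, 351 and 270.5 and 1272, 1853 and 1685. Among sugar exporters, OsSWEET11 differed by -2.82 ± 0.44 against 2.95 in SWEET15, with 455, 525 and 353 in drought leaves at tillering and 23.4, 34.5 and 25.2 at panicle elongation. The expansin-like genes EXLA2 and EXLA4, of a family tied to cell walls, differed by 3.66 ± 0.35 and -3.69 ± 0.41.

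**Figure D4:**
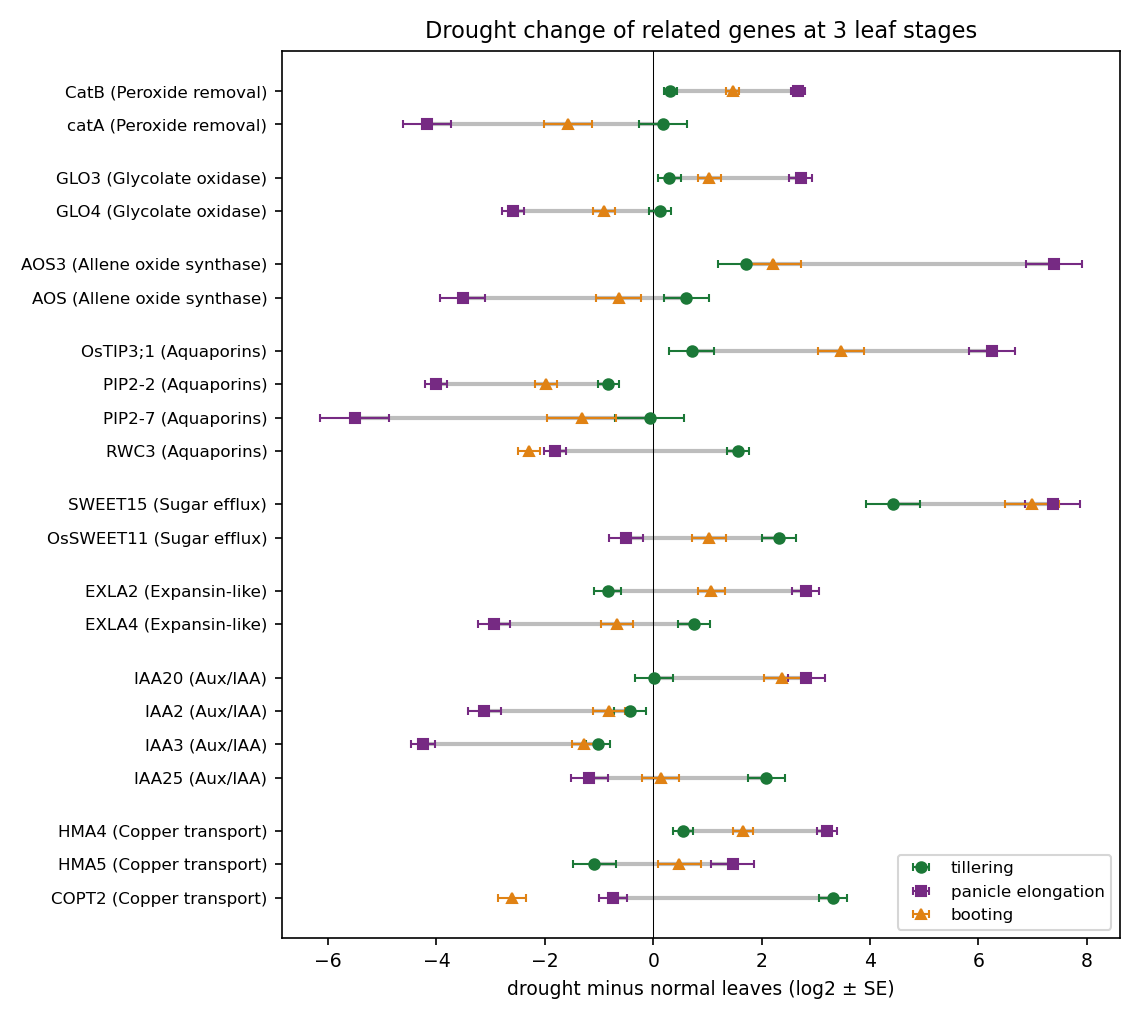
Drought change (drought minus normal leaves, log2 ± SE, 3 arrays a group) of 21 related genes in 8 families at tillering (green circles), panicle elongation (purple squares) and booting (orange triangles), with a grey bar from tillering to panicle elongation. In catalase, glycolate oxidase, allene oxide synthase and expansin-like genes the bars run in opposite directions, and booting lies between the other stages in all genes shown but RWC3 and COPT2.

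Among regulators, the study's own list of drought-responsive transcription factors can be counted by family, though it was chosen on these arrays and is no independent evidence of direction. In it, 7 of 19 AP2/EREBP probe sets were called higher and none lower, 9 of 19 MYB higher and 1 lower, 6 of 23 NAC higher and 1 lower, 5 of 12 C2H2 higher and none lower, and 3 of 14 WRKY each way. The zinc finger protein OsC3H10 read 32.0 to 68.8 in the other 9 arrays and 1438, 1889 and 1693 in drought leaves at panicle elongation, a difference of 5.15 ± 0.30 (limma, adjusted p = 1.4e-12). It changed by 0.40 at booting, which did not pass the test. A probe set of the MYB-related family read 34.7 to 76.9 and 2272, 1968 and 2168 in the same comparison, a difference of 4.89 ± 0.44, and at booting it rose by 4.12. The homeobox gene HOX4 went the other way, with 1448, 1305 and 749 in normal and 1839.8, 1854 and 1905 in drought leaves at tillering, and 1302, 1784 and 1472 in normal and 63.0, 418 and 61.6 in drought leaves at panicle elongation, where drought replicate 2 was the highest. It differed by -4.41 ± 0.62, and by -5.33 without that array.

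The stage difference lay mainly in drought leaves. Between normal leaves of the 2 stages 144 probe sets were called (0.251% of those tested), 36 higher and 108 lower at panicle elongation, whereas between drought leaves 2281 were called (3.98%), 917 higher and 1364 lower. Of the 1070 higher stage differences, 690 were also called between drought leaves and 61 between normal leaves, and of the 1500 lower ones 982 and 19. The drought arrays of the 2 stages did not overlap in 992 of the 1070 and 1459 of the 1500. That count was not made over all probe sets, so it has no level to be read against. These shares follow in part from the choice of genes, since the stage difference is the drought leaf difference minus the normal leaf difference. Hd3a is an exception: normal leaves differed by 4.34 in Hd3a (limma, adjusted p = 1.3e-12) and drought leaves by -0.50 (adjusted p = 0.077). In a MYB and a MYB-related probe set of those that fell at tillering alone, normal leaves differed by -3.04 and -3.46 and drought leaves by -0.0058 and -0.10.

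**Figure D5:**
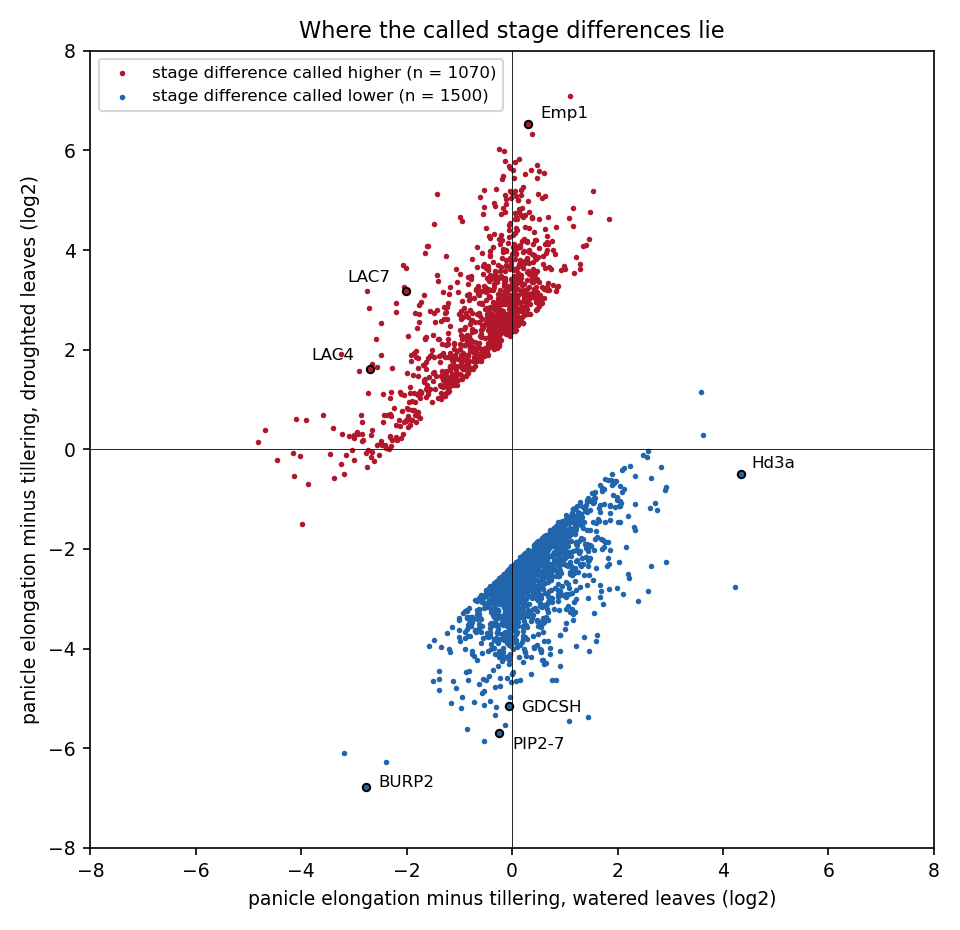
Difference between panicle elongation and tillering (log2) in normal leaves on the x axis and in drought leaves on the y axis for the 2570 probe sets whose stage difference was called, 1070 higher in red and 1500 lower in blue. Most points lie near 0 on the x axis and far from 0 on the y axis, while Hd3a lies to the right near 0 on the y axis, and LAC4, LAC7 and BURP2 lie to the left.

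Roots of the same stages gave few such differences. The stage difference of the root drought change was called in 225 probe sets (0.393%), 191 higher and 34 lower. Leaf minus root, the test of whether the 2 organs differ in it, called 2074 probe sets (3.62%), 841 higher and 1233 lower in leaves. It called 626 of the 1070 higher leaf differences (58.5%) and 846 of the 1500 lower ones (56.4%), while 59 and 9 of these were called in roots in the same direction. The shares of 58.5% and 56.4% follow in part from the choice of genes, since the leaf stage difference that chose them is part of leaf minus root. Emp1, AOS3, rab25 and OsTIP3;1 differed between organs: their root stage differences were 0.75 ± 0.44, 0.25 ± 0.73, 0.56 ± 0.43 and 0.69 ± 0.60, none past the test, and leaf minus root was 5.49 ± 0.63, 5.43 ± 1.03, 5.04 ± 0.60 and 4.85 ± 0.85 (limma, adjusted p = 5.5e-07, 0.0004, 1.1e-06 and 0.00016).

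The 3 small heat shock proteins called in leaves were called in roots too. HSP17.4, HSP18.1 and HSP23.2 had root stage differences of 5.56 ± 0.41, 5.19 ± 0.43 and 5.04 ± 1.27 (limma, adjusted p = 4.0e-10, 3.2e-09 and 0.013). Leaf minus root was -1.28 ± 0.59, -1.45 ± 0.61 and -0.38 ± 1.79 and did not pass the test (adjusted p = 0.13, 0.097 and 0.92), which does not show that the organs were alike. YSL16, a transporter of metals bound to nicotianamine, had opposite signs, with -2.99 ± 0.33 in leaves and 2.10 ± 0.33 in roots, and leaf minus root of -5.10 ± 0.47 (limma, adjusted p = 2.3e-08).

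Markers of leaf cells and of other tissues were summed per array to check the samples. The 8 nuclear leaf photosynthesis markers summed to 62063 to 68308 in the 6 normal arrays, 40685 to 44025 in drought leaves at tillering and 9543 to 13550 at panicle elongation. In normal leaves 7 of the 8 had a mean above the median of all values. That is a low bar for the label leaf, and arrays of roots and panicles were not summed beside them. The 15 root markers summed to 2769 to 15788 in normal and 2785 to 4027 in drought leaves at tillering, and to 5308 to 6598 and 1221 to 1648 at panicle elongation, with 2 called lower, Lsi1 and PT8. The normal replicates at tillering thus disagreed widely in this sum, and they enter every stage difference. The 13 young panicle and floral organ markers summed to 3051 to 3903 at tillering and 3326 to 5882 at panicle elongation, with group means of MADS58 at 10.9 to 13.5. They hold 1 call, MADS2, at -2.58 ± 0.24. The 4 shoot meristem markers summed to 111 to 262 and held no call, and the 16 markers of dividing cells summed to 837 to 1346, with 1 call, CYCA1-4, at -3.17 ± 0.36. The part of cell makeup in the stage differences was not tested, and probe sets with names ending in _x_at, _s_at or _a_at may bind several transcripts, as in RBCS, LHCP, PIP2-7 and catA. Leaf water content was set to 1 range for all drought plants, and no value per plant is used here, so a stage difference and a difference in how far each plant had dried within that range cannot be told apart.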

How the data were processed

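RNA of DK151 was measured on 36 Affymetrix rice arrays, 3 for each of 12 groups, and arrays were assigned to groups by their labels. The authors made CEL files with GCOS and applied the invariant-set normalization of dChip, and the intensity values that they deposited are linear, with 1 for each probe set on an array. The dChip version and the use of mismatch probes are not given in the sources used here, and the number of arrays limits the precision.

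Values under 1 were set to 1 (296 in the 12 arrays), the array maker's 123 control probe sets were left out, and log2 was taken. All 36 arrays were fitted in R 4.3.3 with limma 3.58.1, 1 mean per group, no replicate term, 24 residual and 3.76 prior degrees of freedom. Stage differences, drought changes and leaf minus root contrasts were called where they reached 5-fold and the p adjusted by Benjamini-Hochberg was under 0.05. Of 57258 probe sets, 22436 match 1 gene of rice assembly ASM3414082v1, 95 several and 34727 none, and 4118 have a symbol or a description from the supplementary tables.

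Named genes were, per response class, the 8 largest called differences (12 for opposite directions) with 1 described gene, and the called list members with the largest difference each way. A gene stands by its probe set with the highest mean over the 12 arrays, except CatB, which stands by that of the list it was taken from. Of 133 called probe sets looked at in detail, 90 follow this rule, while values already seen led to the choice of the rest. The members and lists were chosen with earlier results of these data known. Lists took 1 probe set per gene (highest mean of 36 arrays) and are described by counts and medians with no test.

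In simulated data, 84% of 6-fold and 100% of 10-fold stage differences were called, and 2% of 3-fold ones. The methods name a split-plot design with blocks, and no label gives the block of a replicate. Same-numbered normal and drought arrays deviated from their group means with correlations of 0.13, 0.31 and 0.08 at tillering and -0.06, -0.11 and -0.03 at panicle elongation. Arrays of unlike number gave -0.28 to 0.16 and -0.11 to 0.12. Replicate numbers thus showed no pairing at panicle elongation, and at tillering these values do not decide it. The labels call replicates biological and the methods take each from 1 plant. Alternatives changed the test, fold minimum, floor, filter, normalization, block, probe sets and arrays. Sequences were not analysed here.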

Additional observations from a re-analysis of the deposited data

Results flagged for a closer look

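The stage difference of the drought change differed between leaves and roots in 2074 probe sets, by limma's test of leaf minus root (adjusted p under 0.05 and 5-fold). Among the genes named by the rule, those with the largest such difference above 0 were Emp1 at 5.49, AOS3 at 5.43 and rab25 at 5.04 on the log2 scale. Those with the largest below 0 were the bHLH probe set at -6.62, the peroxidase Os07g0676900 at -5.50 and PIN6 at -5.23. Os07g0676900 had a stage difference of -3.81 ± 0.21 in leaves and 1.69 ± 0.21 in roots, whereas the values of the bHLH probe set rest on 3 normal arrays at panicle elongation that read 3629.9, 279.7 and 3544.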

How the results depend on the processing

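The counts of stage differences (1070 higher, 1500 lower) and of leaf minus root differences (2074) depend on the fold minimum and on how many probe sets are tested. A 2-fold minimum gave 4318, 6778 and 8863, no fold minimum gave 9067, 10128 and 11230, and a refit on 1 probe set per gene, with p adjusted over those alone, gave 597, 906 and 1159 of 17905. Leaving out 1 array at a time gave 1038 to 1126 higher, 1332 to 1929 lower and 1932 to 2570 leaf minus root calls, the highest of the last 2 without normal replicate 2 at panicle elongation. With the replicate block, the counts were 1078, 1512 and 2094. The other alternatives stayed within 1.5 times: limma without adjustment, an ordinary t with and without adjustment, ratios of linear means or medians, the 12 leaf arrays alone (no leaf minus root value), an intensity trend, a floor at 28.3, a filter on dim probe sets, quantile normalization, median centring and no _x_at or _s_at probe sets. The methods' t-test with 5-fold, unadjusted, called 359 higher and 623 lower at tillering and 1433 and 1931 at panicle elongation, and 336 and 599, and 1345 and 1727, after Benjamini-Hochberg.

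Quantile normalization moved the median stage difference of all probe sets by 0.0054 and median centring by -0.017. Of the 133 probe sets looked at in detail, none reversed under any alternative run on them, and 105 kept their call without every single array. Calls lost were 9 with the floor (IAA14, IAA20, LAC24, CPS2 and Os07g0636600 among them), 3 with 12 arrays (Os07g0663800, LOX8, OsKS3), 2 with quantile normalization (CatB, ARF3), 13 without normal replicate 2 at panicle elongation, 1 to 8 without another array, and 0 with the block, the filter or median centring. The cause was not tested.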
